A study of Arabidopsis thaliana with 18 samples.

Results

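The ER body and myrosinase β-glucosidase system was followed through 10 Arabidopsis loci, 10 of the 27827 gene rows of the value table, found by their locus identifiers. They comprise 5 β-glucosidase genes, PYK10, BGLU18, BGLU19, BGLU21 and BGLU22, the ER body genes NAI1 and NAI2, the lectin gene PBP1 and the classical myrosinase genes TGG1 and TGG2. All 10 were present, and none had a row identical to that of another locus. The list was selected on the measured rise of PYK10 between dry seed and seedling, around which the known genes of the system were gathered, so the changes of its members between the stages are given as description, with no test. For the members, tests were kept for the differences between RNA fractions, which did not choose the list.

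All arrays carried RNA of the accession Columbia-0 (Col-0), with no mutation or transgene named in the labels. There were 2 stages, freshly harvested dry seeds and seedlings 72 h after the start of imbibition, and from each stage total RNA, monosomal RNA (bound to 1 ribosome) and polysomal RNA (bound to several ribosomes) were hybridised with 3 replicates, giving 18 arrays in 6 groups. A replicate pooled 8 plants. The deposited value of a locus on an array is a log2 intensity made by RMA (robust multi-array averaging), and all differences below are on that log2 scale.

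ER bodies are spindle-shaped compartments of the endoplasmic reticulum found in plants of the Brassicales, packed with β-glucosidases that carry an ER retention signal. On wounding, these enzymes meet their substrates, among them indole glucosinolates and coumarin glucosides, and gather into large complexes with jacalin-type lectins and GDSL lipase-like proteins. Myrosinases of the TGG type do the same work from a different place: they lie in the vacuoles of guard cells and of myrosin cells along the phloem, and cut glucosinolates into toxic products when tissue is crushed.

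Array medians lay between 3.05 and 3.65, and no detection call accompanies the values, so whether a value near or below the median is above background is unknown. Differences against such values are differences of array signal, and no fold is given for them between the stages. Markers of the stages matched the labels. The median of 7 seed storage and late embryogenesis genes was 11.33 to 11.53 on the dry seed arrays and 3.32 to 4.26 on 8 seedling arrays, but 6.86 on the polysomal seedling array of replicate 3, which stands apart in this. The median of 5 photosynthesis genes was 2.38 to 4.46 in dry seed and 10.86 to 11.25 in seedlings. A list of 5 root genes had medians of 2.03 to 2.98 and 3.62 to 5.34, and a list of 7 guard cell genes 1.91 to 2.41 and 2.51 to 3.76, in dry seed and seedlings respectively. Of the guard cell list, EPF1 and SPCH, which act in the stomatal lineage, were above the array median on 9 and 8 of the 9 seedling arrays, FAMA on 3, MYB60 on 2, KAT1 on 1, and HT1 and SLAC1 on 0. These are whole seeds and seedlings, in which fewer cells of a type and less RNA per cell cannot be told apart.

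Among the β-glucosidases, PYK10 was the gene with the widest rise. PYK10 (AT3G09260, chromosome 3) encodes the major ER body β-glucosidase of seedlings and roots. On the dry seed arrays it read 3.80, 3.74 and 3.06 in total RNA, 1.99, 2.89 and 2.41 in monosomal RNA and 2.69, 2.98 and 3.04 in polysomal RNA. On the seedling arrays it read 11.40, 11.34 and 11.24 in total RNA, 11.03, 11.22 and 10.85 in monosomal RNA and 11.17, 11.12 and 10.89 in polysomal RNA. Every seedling array lay far above every dry seed array, and dry seed values were near the array medians. The difference between stages was 7.79 in total RNA, 8.60 in monosomal RNA and 8.16 in polysomal RNA, each with an SE of 0.23.

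BGLU21 and BGLU22 are next to each other on chromosome 1 and encode close relatives of PYK10 that cut scopolin, a coumarin glucoside of roots. BGLU21 (AT1G66270) read 2.87, 2.79 and 3.31 in total RNA of dry seed, 3.58, 3.18 and 1.98 in monosomal RNA and 1.90, 1.81 and 2.67 in polysomal RNA. In seedlings it read 9.20, 9.05 and 9.03, then 8.55, 8.37 and 8.66, and 8.37, 8.29 and 8.44 in the same order of fractions. All seedling arrays were above all dry seed arrays, and the seedling values were tight within each fraction. Its differences between stages were 6.11 in total RNA, 5.61 in monosomal RNA and 6.24 in polysomal RNA, with an SE of 0.30.

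BGLU22 (AT1G66280) read 0.82, 2.18 and 1.13 in total RNA of dry seed, 2.63, 1.25 and 2.95 in monosomal RNA and 1.99, 2.01 and 1.05 in polysomal RNA. In seedlings the values were 6.25, 6.33 and 5.66 in total RNA, 4.66, 5.47 and 2.82 in monosomal RNA and 4.98, 4.45 and 4.50 in polysomal RNA. The monosomal groups overlapped, because the seedling array of replicate 3 read 2.82, below the highest dry seed array, while the other fractions separated fully. The differences were 4.70 in total RNA, 2.04 in monosomal RNA and 2.96 in polysomal RNA, with an SE of 0.53, and the monosomal difference was 2.79 without the low seedling array. How the probes of the array separate BGLU21 from BGLU22 is not given in the sources used here, so their separate values are uncertain.

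BGLU18 did not share this pattern. BGLU18 (AT1G52400, chromosome 1) encodes the β-glucosidase of leaf ER bodies, which also releases abscisic acid from its glucose ester. In dry seed it read 2.81, 2.52 and 2.45 in total RNA, 1.49, 1.91 and 2.49 in monosomal RNA and 1.93, 2.42 and 1.87 in polysomal RNA. Seedling arrays read 2.78, 3.41 and 3.02, then 2.31, 2.07 and 2.53, and 2.30, 2.74 and 2.1. The stages overlapped in all 3 fractions, and the gene was above its array's median on 0 of 18 arrays. The differences were 0.47, 0.34 and 0.31 (SE 0.26) in total, monosomal and polysomal RNA, and with arrays shifted to a common median they turned to -0.034, -0.019 and -0.13, so no direction can be given.

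BGLU19 ran the opposite way. BGLU19 (AT3G21370, chromosome 3) belongs to the same subgroup of β-glucosidases. In dry seed it read 11.65, 11.66 and 11.61 in total RNA, 11.53, 11.34 and 11.37 in monosomal RNA and 11.24, 11.34 and 11.35 in polysomal RNA. In seedlings it read 2.25, 2.95 and 2.36 in total RNA, 2.58, 2.93 and 3.59 in monosomal RNA and 2.26, 2.73 and 5.93 in polysomal RNA. All dry seed arrays were above all seedling arrays by a wide margin, and 1 seedling array, polysomal replicate 3, was far above the other 8. The difference was -9.12 in total RNA, -8.38 in monosomal RNA and -7.67 in polysomal RNA (SE 0.57), and the polysomal difference was -8.81 without that array.

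**Figure D1:**
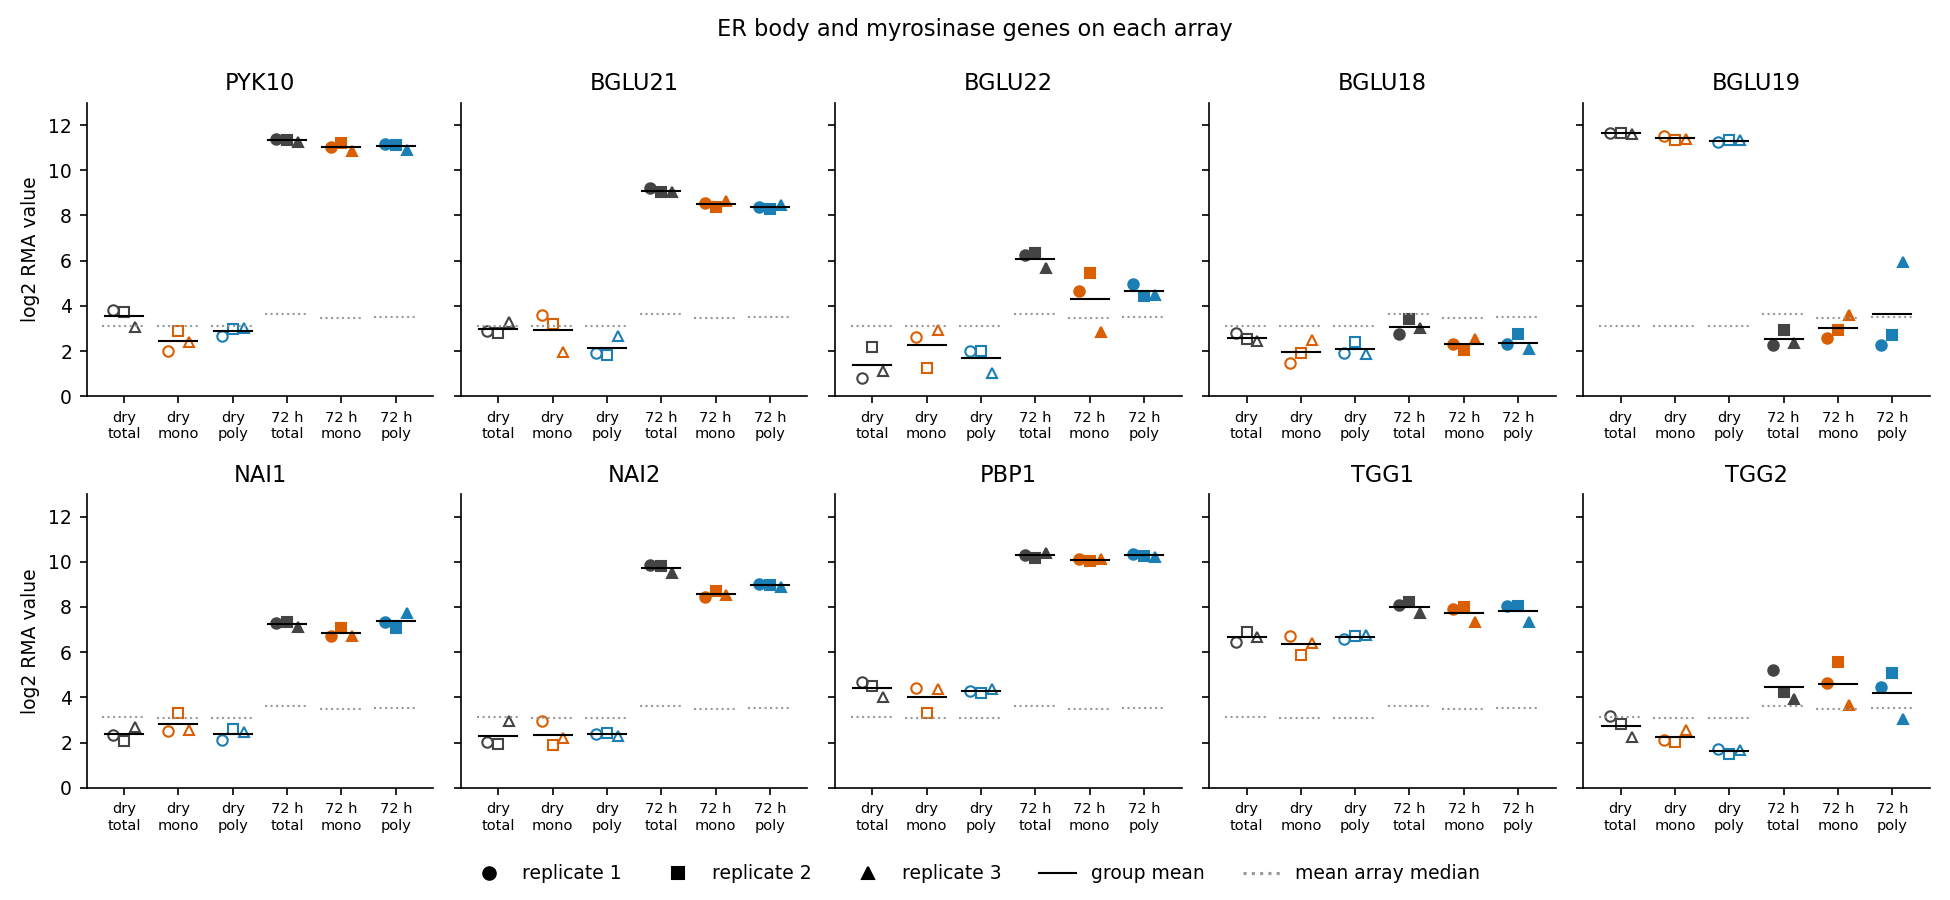
Log2 RMA value of each of the 10 genes (1 panel each) on all 18 arrays, by stage and RNA fraction. Open symbols are dry seed and filled symbols 72 h seedlings, the symbol shape gives the replicate, black bars are group means and dotted grey bars the mean array median of the group. PYK10 went from at most 3.80 to at least 10.85, BGLU19 from at least 11.24 to at most 5.93, and BGLU18 stayed below the array medians.

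The array on which BGLU19 stood out is the same one on which seed storage genes stood out. On seedling polysomal replicate 3, BGLU19 was 3.44 above the mean of the other polysomal seedling arrays, and the median of the seed storage list was 6.86 against 3.57 and 3.32. The photosynthesis list read 11.25 on that array, within 0.2 of the other polysomal seedling arrays at 11.20 and 11.09. The part of seed material in the BGLU19 value was not tested. Of the other 9 members, TGG2 moved most on that array, by -1.74 against the mean of replicates 1 and 2, and the remaining 8 by between -0.71 and 0.53.

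**Figure D2:**
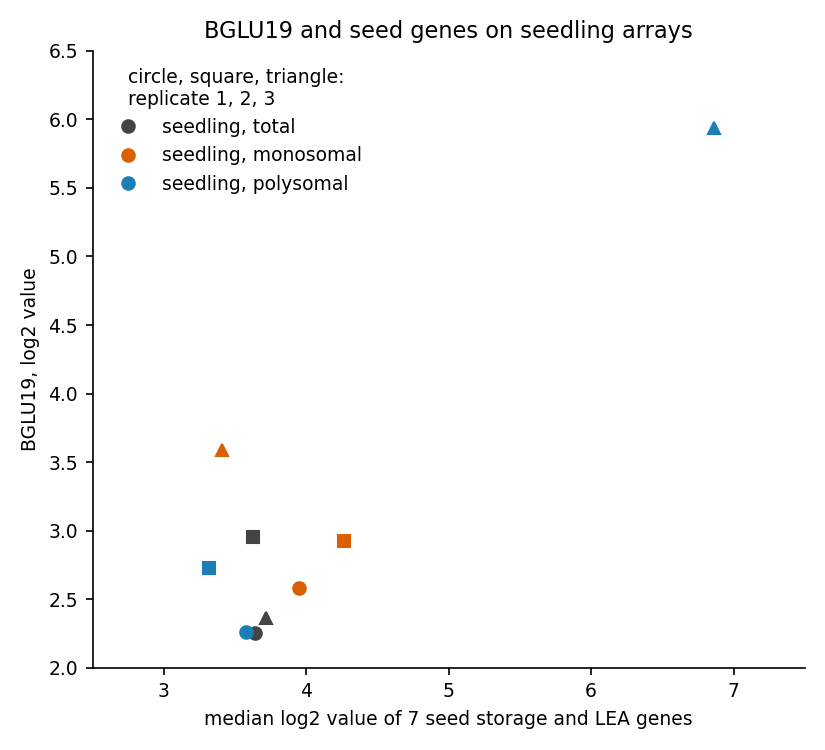
BGLU19 (log2 RMA value, vertical axis) against the median log2 value of the 7 seed storage and late embryogenesis abundant (LEA) genes (horizontal axis) on the 9 seedling arrays, coloured by RNA fraction. Polysomal replicate 3 lies alone at 6.86 and 5.93, and the other 8 arrays lie at or below 4.26 and 3.59.

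The genes that build the ER body had low values in dry seed and high values in seedlings. NAI1 (AT2G22770, chromosome 2) encodes a basic helix-loop-helix transcription factor needed for ER bodies and for expression of PYK10. It read 2.34, 2.08 and 2.70 in total RNA of dry seed, 2.52, 3.32 and 2.56 in monosomal RNA and 2.13, 2.62 and 2.45 in polysomal RNA. Seedling values were 7.27, 7.33 and 7.11, then 6.71, 7.06 and 6.73, and 7.33, 7.09 and 7.73. The stages did not overlap in any fraction, and the differences were 4.86 in total, 4.03 in monosomal and 4.98 in polysomal RNA (SE 0.24).

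NAI2 (AT3G15950, chromosome 3) encodes an ER body protein without which the bodies do not form. In dry seed it read 2.01, 1.92 and 2.94 in total RNA, 2.98, 1.88 and 2.19 in monosomal RNA and 2.37, 2.42 and 2.29 in polysomal RNA. In seedlings it read 9.85, 9.83 and 9.50 in total RNA, 8.45, 8.69 and 8.52 in monosomal RNA and 9.0, 8.99 and 8.87 in polysomal RNA. Seedling arrays were all above dry seed arrays, and in seedlings the 3 fractions formed separate bands with total RNA highest and monosomal RNA lowest. The differences between stages were 7.43 in total RNA, 6.21 in monosomal and 6.59 in polysomal RNA (SE 0.26).

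PBP1 (AT3G16420, chromosome 3, also JAL30) encodes the jacalin-type lectin that binds PYK10 when cells are broken. In dry seed it read 4.69, 4.49 and 4.03 in total RNA, 4.40, 3.32 and 4.39 in monosomal RNA and 4.27, 4.18 and 4.37 in polysomal RNA. The seedling arrays read 10.30, 10.19 and 10.38, then 10.11, 10.04 and 10.10, and 10.35, 10.27 and 10.22. It was above the array median on all 9 dry seed arrays, unlike NAI2, which was above it on 0, and all its seedling arrays were higher still. The differences were 5.89, 6.05 and 6.01 (SE 0.24) in total, monosomal and polysomal RNA. The probes of PBP1 and of its neighbour JAL31, a close homologue, may not separate fully, which cannot be checked here.

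TGG1 and TGG2 shifted less between the stages than NAI1 and NAI2. TGG1 (AT5G26000) and TGG2 (AT5G25980), the main myrosinases of aerial tissue, lie 3 positions apart in the gene order of chromosome 5. TGG1 read 6.43, 6.89 and 6.68 in total RNA of dry seed, 6.73, 5.88 and 6.42 in monosomal RNA and 6.57, 6.70 and 6.77 in polysomal RNA. Its seedling values were 8.07, 8.22 and 7.73, then 7.90, 8.02 and 7.32, and 8.06, 8.03 and 7.33. Thus TGG1 was well above the array median in dry seed already, on 9 of 9 arrays, and the seedling arrays were all higher. Its differences were 1.34, 1.40 and 1.13 (SE 0.25), or 2.53-fold in total RNA.

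TGG2 read 3.16, 2.84 and 2.24 in total RNA of dry seed, 2.13, 2.01 and 2.57 in monosomal RNA and 1.73, 1.5 and 1.68 in polysomal RNA. In seedlings it read 5.23, 4.23 and 3.92, then 4.62, 5.55 and 3.68, and 4.47, 5.08 and 3.03. The stages did not overlap in any fraction, but seedling values of TGG2 spread widely, with SDs of 0.68 to 1.05. Its differences were 1.71, 2.38 and 2.56 (SE 0.46). In both TGG genes, and in PYK10 as well, replicate 3 was the lowest seedling array in all 3 fractions. The guard cell list was lowest in replicate 3 of monosomal and polysomal RNA and highest in replicate 3 of total RNA. The part of cell composition in these values was not tested.

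Taking the stages together, values of dry seed and seedling did not overlap for 8 members higher and 1 lower in total RNA, where 30.1% and 36.7% of all rows separated in the same way. In monosomal RNA the counts were 7 higher and 1 lower, with 27.8% and 26.1% of all rows, and in polysomal RNA 8 higher and 1 lower, with 30.2% and 31.3%. The median difference over the 10 members was 4.78 in total, 3.20 in monosomal and 3.97 in polysomal RNA, against -0.17, 0.03 and -0.03 over all rows. Nothing is read from these counts, since the list was made with the stage change of PYK10 in view.

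**Figure D3:**
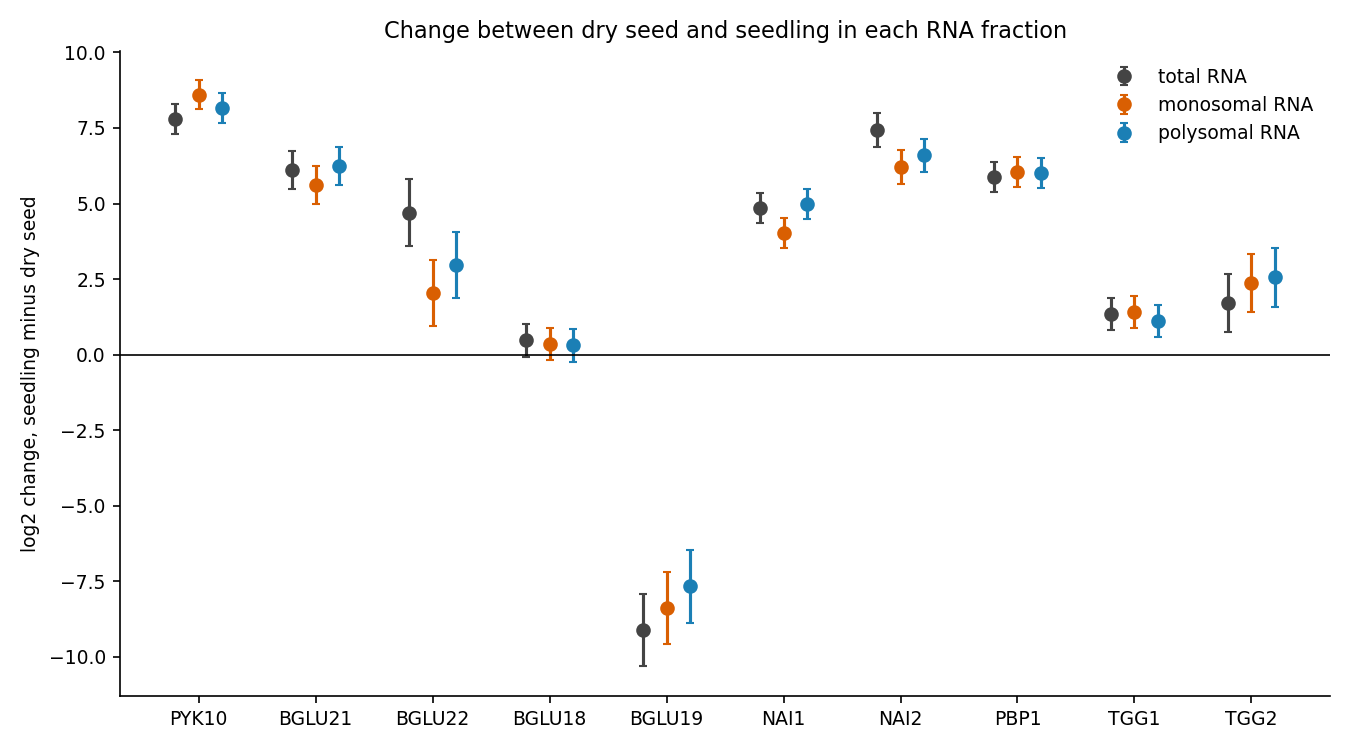
Difference in log2 RMA value between 72 h seedlings and dry seed (vertical axis) for the 10 genes, in total (grey), monosomal (orange) and polysomal (blue) RNA. Points are differences of group means and bars 95% confidence intervals of the fit, with 3 arrays in each group. PYK10 is highest at 7.79 to 8.60, BGLU19 lies at -9.12 to -7.67, and BGLU18 lies close to 0.

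In 6 of the 10 members, PYK10, BGLU21, BGLU22, NAI2, PBP1 and TGG1, the means of the 3 seedling groups ranked above those of the 3 dry seed groups, and total RNA of seedlings came first. Those first means were 11.33 ± 0.08, 9.09 ± 0.09, 6.08 ± 0.37, 9.72 ± 0.19, 10.29 ± 0.10 and 8.01 ± 0.25 in that order (SD, n = 3). In PBP1 this first place did not separate from polysomal RNA, at 10.28 ± 0.07. NAI1 alone among the members was highest in polysomal RNA of seedlings, at 7.38 ± 0.33, which overlapped with total RNA at 7.24 ± 0.11. For TGG1 all 3 seedling fractions overlapped with their neighbours in the order, as did all 3 dry seed fractions, and the same was true of the seedling fractions of TGG2. All neighbouring groups of BGLU18 overlapped. Only the NAI2 order placed all 3 seedling fractions apart without overlap.

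Whether the members' RNA was distributed over the fractions differently from total RNA was tested within each stage. Arrays of all fractions were scaled alike, so these differences describe the share of a gene's signal in a fraction relative to other genes, not the amount of RNA bound by ribosomes. In dry seed, PYK10 was 1.10 lower in monosomal than in total RNA (means 2.43 ± 0.45 and 3.53 ± 0.41, SE of the difference 0.23, limma adjusted p = 0.00675), and this made 1 member called of 10, where 6.21% of all rows were called and 2.74% were called as lower. The monosomal arrays of PYK10 and BGLU19 lay below all their total arrays, as did those of 11.7% of all rows. The PYK10 difference was not called when only the groups compared entered the fit (adjusted p = 0.0992). Since PYK10 was near the array medians in dry seed, the difference concerns a weak signal. The remaining 9 members did not pass, with differences from -0.63 for BGLU18 to 0.90 for BGLU22.

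Polysomal RNA of dry seed gave 0 called members against total RNA, with 4.65% of all rows called by limma, though 3 members had an unadjusted p under 0.05. TGG2 read 1.11 lower (SE 0.46, adjusted p = 0.162), with 1.64 ± 0.12 in polysomal and 2.75 ± 0.47 in total RNA. BGLU21 read 0.86 lower (SE 0.30, adjusted p = 0.105) and PYK10 0.63 lower (SE 0.23, adjusted p = 0.115). The polysomal arrays of 5 members lay below all their total arrays, where 16.6% of all rows did so, and these 5 were PYK10, BGLU18, BGLU19, BGLU21 and TGG2. Between polysomal and monosomal RNA of dry seed 0 members were called by limma, with 19% of all rows called and 1 member, BGLU21, at an unadjusted p under 0.05 (difference -0.79, SE 0.30, adjusted p = 0.0776). TGG2 was the 1 member whose polysomal arrays all lay below its monosomal arrays, where 21.1% of all rows did so.

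In seedlings, 3 members were lower in monosomal than in total RNA and 0 were higher, where 31.8% of all rows were called, 14.5% as lower and 17.2% as higher. The ER body gene NAI2 fell by 1.17 on the log2 scale (8.55 ± 0.12 against 9.72 ± 0.19, SE 0.26, limma adjusted p = 0.00285), which is 2.25-fold. BGLU22 fell by 1.76 (4.32 ± 1.36 against 6.08 ± 0.37, SE 0.53, limma adjusted p = 0.0164), but this rests on the array of replicate 3. Without that array the difference was -1.01 with an adjusted p of 0.112, and without total replicate 1 or 2 the adjusted p was 0.0513 or 0.0547. BGLU18 fell by 0.77 (2.30 ± 0.23 against 3.07 ± 0.32, SE 0.26, limma adjusted p = 0.0289), at values below the array medians, and this was lost when arrays were centred on their medians (adjusted p = 0.0702) or when monosomal replicate 1 or 2 or total replicate 2 or 3 was left out (adjusted p of 0.0556 to 0.127).

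Monosomal arrays of 7 members lay below all their total arrays in seedlings, compared with 18.5% of all rows, and besides the 3 called genes these were PYK10, BGLU21, NAI1 and PBP1. PYK10 differed by -0.30 (SE 0.23, adjusted p = 0.34), BGLU21 by -0.57 (SE 0.30, adjusted p = 0.156), NAI1 by -0.40 (SE 0.24, adjusted p = 0.202) and PBP1 by -0.20 (SE 0.24, adjusted p = 0.534). The shifts of these 4 genes did not pass the test. The myrosinase genes overlapped between both fractions, with -0.26 for TGG1 and 0.15 for TGG2.

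Polysomal RNA of seedlings differed from total RNA in 1 member, where 20.5% of all rows were called and 10.7% were called as lower. NAI2 was again lower, by 0.77 (8.95 ± 0.07 against 9.72 ± 0.19, SE 0.26, limma adjusted p = 0.0443). Its adjusted p lay close to the threshold, and the call was lost without any 1 of the total or polysomal seedling arrays or the polysomal dry seed arrays (adjusted p of 0.0507 to 0.127), with arrays centred (0.0875) and with the replicate number as a block (0.0534). BGLU22 at -1.43 (SE 0.53, adjusted p = 0.0602), BGLU18 at -0.69 (SE 0.26, adjusted p = 0.0625) and BGLU21 at -0.73 (SE 0.30, adjusted p = 0.0992) did not pass. They were called in 5, 4 and 2 of the 25 other settings. With only the groups compared, limma called BGLU22 (adjusted p = 0.00395) and BGLU21 (0.0146) as lower. With array weights it called BGLU22 (0.0265) and BGLU18 (0.0461). BGLU19 stood at 1.12 (SE 0.57, adjusted p = 0.179), which became -0.025 without polysomal replicate 3 and 1.81 (adjusted p = 0.0312) without polysomal replicate 1, so its direction depended on replicate 3. The polysomal arrays of PYK10, BGLU18, BGLU21, BGLU22 and NAI2 lay below all their total arrays, as in 18% of all rows. PYK10 and PBP1 had differences of -0.27 and -0.01, with 95% intervals of -0.75 to 0.22 and -0.51 to 0.49.

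Between polysomal and monosomal RNA of seedlings limma called 0 members, with 19.1% of all rows called, and 1 member had an unadjusted p under 0.05. This was NAI1, at 7.38 ± 0.33 in polysomal and 6.83 ± 0.20 in monosomal RNA (difference 0.55, SE 0.24, adjusted p = 0.112). NAI1, NAI2 and PBP1, the members that are not glycosidases, had all polysomal arrays above all monosomal arrays, where 16.5% of all rows did so. That grouping was noticed after the values were seen. The 7 glycosidase genes overlapped between these fractions, with differences from -0.42 for TGG2 to 0.61 for BGLU19.

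**Figure D4:**
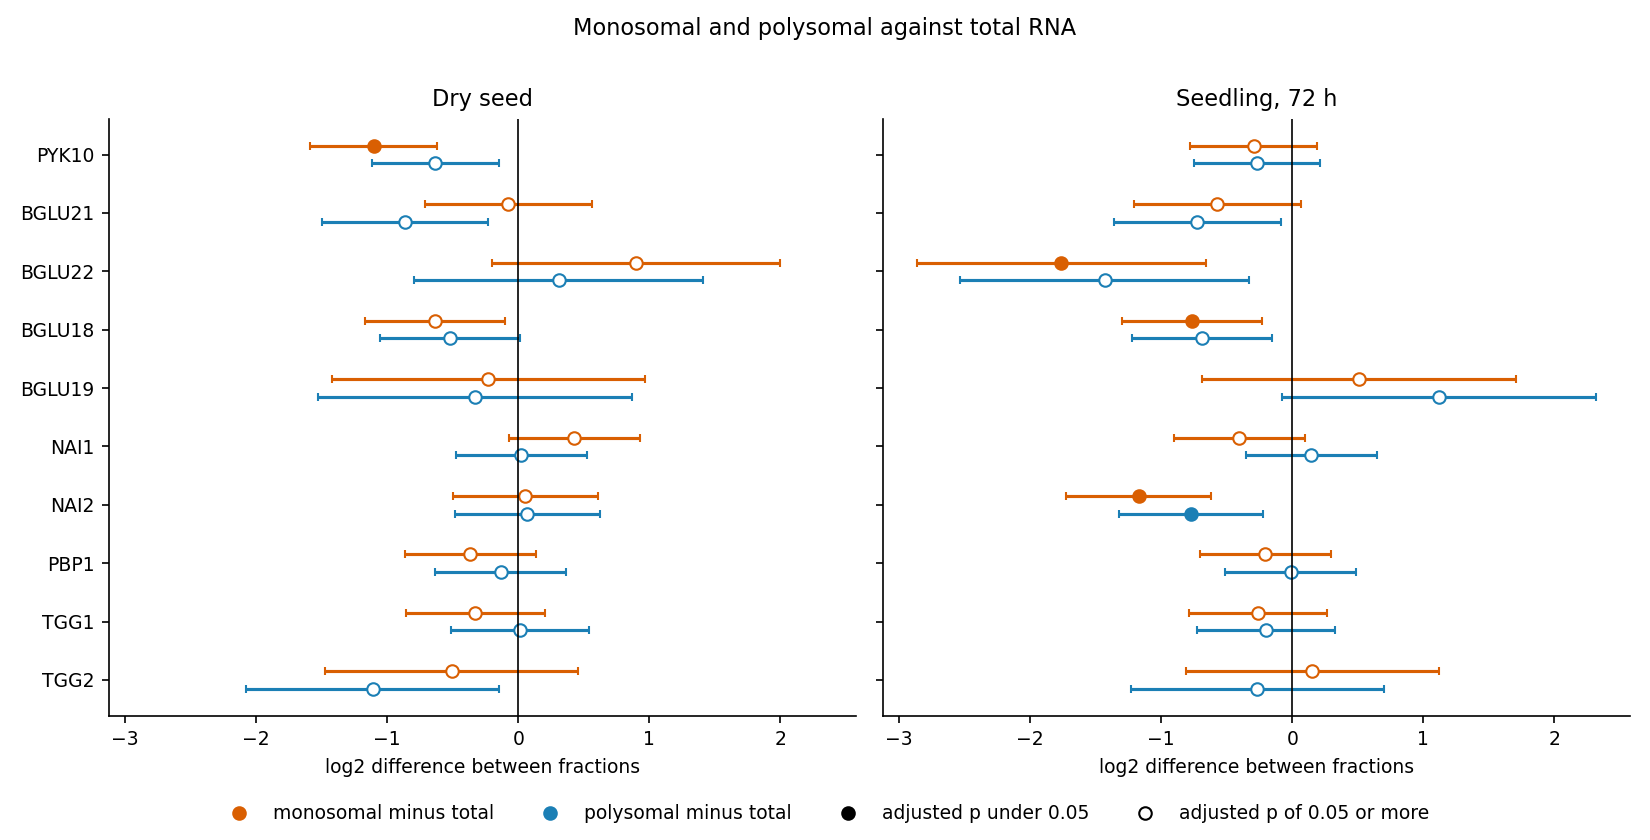
Log2 difference of monosomal (orange) and polysomal (blue) RNA from total RNA (horizontal axis) for the 10 genes in dry seed (left) and 72 h seedlings (right). Bars are 95% confidence intervals of the fit with 3 arrays in each group, and filled points passed an adjusted p of 0.05. The filled points are PYK10 in dry seed and BGLU22, BGLU18 and NAI2 (both fractions) in seedlings, all below 0.

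The difference between stages in these fraction shifts was tested directly. In monosomal against total RNA, 2 members shifted further down in seedlings than in dry seed, where 19.1% of all rows were called and 9.85% shifted down. BGLU22 went from 0.90 in dry seed to -1.76 in seedlings, a difference of -2.66 (SE 0.74, limma adjusted p = 0.0185), and -1.91 (adjusted p = 0.0403) without monosomal seedling replicate 3. NAI2 went from 0.05 to -1.17, a difference of -1.23 (SE 0.37, limma adjusted p = 0.0282). This NAI2 call was lost with arrays centred (adjusted p = 0.0528), with only the groups compared (0.0664), and without dry monosomal replicate 1 or replicate 1 or 2 of total RNA in either stage (0.0584 to 0.0723). PYK10 went the other way, from -1.10 to -0.30, by 0.81 (SE 0.33), but did not pass (adjusted p = 0.0883). It was called in 4 of the 25 other settings, namely with arrays centred (0.95, adjusted p = 0.0375), with trend and robust variance priors (0.0432), and without dry monosomal replicate 2 (0.0342) or dry total replicate 3 (0.0292). Polysomal against total RNA gave 0 called members by limma, with 9% of all rows called and 2 members, BGLU22 and NAI2, at an unadjusted p under 0.05 (differences of -1.74 and -0.84, adjusted p = 0.143 and 0.158). Polysomal against monosomal RNA also gave 0, with 10.5% of all rows called and 1 member at an unadjusted p under 0.05, NAI1 with a difference of 0.95 (SE 0.34, adjusted p = 0.0799).

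Over the members as a list, medians of the fraction differences were small. In dry seed they were -0.28 for monosomal and -0.23 for polysomal against total RNA, beside -0.02 and -0.08 over all rows. In seedlings they were -0.35 and -0.27, beside 0.11 and 0.08. Total RNA was the fraction with the highest mean in 7 of 10 members in seedlings, and monosomal RNA that with the lowest in 7, where 29.1% and 27.9% of all rows had these orders. In dry seed the counts were 6 and 4 of 10, beside 31.4% and 30.5% of all rows.

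Other genes of the pathway were taken from 5 lists with 73 loci, of which 72 were measured (AOP2 was not analysed here). In total RNA 35 of the 72 rose and 13 fell between dry seed and seedling, where 28.8% of all rows rose and 33.3% fell. In monosomal RNA 37 rose and 5 fell, with 26.8% and 24.9% of all rows, and in polysomal RNA 40 rose and 5 fell, with 26.7% and 26.8%. With arrays centred on their medians the split was 33 and 26 in total RNA, 35 and 11 in monosomal RNA and 33 and 12 in polysomal RNA.

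The proteins known to share the ER body or the complex with PYK10 were the list in which most genes rose. They were listed as partners of PYK10 with earlier results of these data known, so nothing is read from that rank. Of 13 genes, 10 rose and 1 fell in total RNA, with a median difference of 3.74. The lectin genes JAL34 (6.85, SE 0.19, limma adjusted p = 2.2e-15), JAL22 (6.12, SE 0.21, adjusted p = 1.26e-14) and JAL35 (4.88, SE 0.26, adjusted p = 4.28e-12) and the GDSL lipase-like gene GLL23 (5.92, SE 0.25, adjusted p = 1.73e-13) led. JAL22 went from 1.85 ± 0.47 to 7.97 ± 0.09 in total RNA. MEB1, an ER body membrane protein gene, rose by 3.19, while its relative MEB2 differed by 0.48 and did not pass in total RNA but rose by 1.12 in monosomal and 1.86 in polysomal RNA. TSA1, a relative of NAI2 that lies beside BGLU18, was the 1 that fell in total RNA, by 0.58 (adjusted p = 0.0325), and like BGLU18 it was above its array's median on 0 of 18 arrays. In polysomal RNA TSA1 stood at 0.55, and calls of both signs at such low values did not hold in all settings.

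Relatives of the enzymes went in both directions. Of 21 other β-glucosidase and myrosinase genes, 9 rose and 7 fell in total RNA, with a median of 0.17. PEN2 (BGLU26), an atypical myrosinase that acts on indole glucosinolates in defence against fungi, rose by 5.32 (SE 0.18, limma adjusted p = 1.15e-14), from 2.65 ± 0.15 to 7.96 ± 0.16. BGLU44 rose by 3.14 (SE 0.23), while BGLU11 fell by 4.87 (SE 0.22) and BGLU10 by 2.63 (SE 0.42), with adjusted p of 4.15e-10, 4.12e-13 and 1.81e-05. Of the other classical myrosinase genes, the root genes TGG4 and TGG5 rose by 2.17 and 1.84, and TGG3 and TGG6 were above the array median on 0 of 18 arrays.

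Proteins that steer the outcome of glucosinolate breakdown were mixed too, with 4 of 9 higher and 1 lower in total RNA and a median of 0.59. The nitrile specifier genes accounted for most of this. NSP4 rose by 4.34 (SE 0.21, limma adjusted p = 9.05e-13), NSP1 by 4.24 (SE 0.37, adjusted p = 5.19e-09) and NSP3 by 2.74 (SE 0.29, adjusted p = 7.52e-08). NSP2 fell by 3.96 (SE 0.42, adjusted p = 9.68e-08), and it was above the array median on 9 dry seed and 0 seedling arrays. ESM1, the epithiospecifier modifier, rose by 1.26, whereas the epithiospecifier gene ESP and the myrosinase-binding protein genes MBP1 and MBP2 did not pass.

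Among 17 genes of glucosinolate synthesis and transport 8 rose and 0 fell by limma in total RNA, with a median of 0.17. CYP83B1 (4.42, SE 0.20, adjusted p = 2.89e-13), CYP79B2 (3.59, SE 0.27, adjusted p = 6.07e-10), CYP79B3 (2.80, SE 0.31, adjusted p = 1.71e-07) and the sulfotransferase gene SOT16 (2.76, SE 0.20, adjusted p = 3.89e-10) led, all of which act in the tryptophan-derived, indolic branch. CYP79F1, CYP79F2, CYP83A1, MAM1, MAM3 and FMO-GSOX1, which act in the methionine-derived branch, did not pass in any of the 3 fractions, and 5 of these 6 were above the array median on no array. SOT17 and SOT18, sulfotransferase genes that also serve this branch, rose by 1.17 and 1.55 in total RNA, so the branch as listed was mixed. This division into branches was made after the values were seen. The differences of the 6 genes in total RNA ran from -0.58 for CYP83A1 to 0.13 for CYP79F2.

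Regulators of the pathway gave 4 higher and 4 lower of 12 in total RNA, with a median of 0.18. MYB34 (2.81, SE 0.35, limma adjusted p = 8.71e-07) and MYB51 (2.69, SE 0.27, adjusted p = 4.3e-08), which activate indolic glucosinolate genes, rose, as did the jasmonate-related factors MYC2 (2.63, SE 0.28, adjusted p = 9.23e-08) and MYC4 (1.59, SE 0.19, adjusted p = 5.9e-07). MYB122 and MYC3 of the same list did not pass in total RNA, and MYB122 was above the array median on 0 arrays. MYB29 and MYB76, activators of the methionine-derived branch, differed by -0.53 and -1.12 and passed as lower, with both above the array median on 0 arrays. MYB28 of the same branch did not pass in total RNA but rose by 1.16 in monosomal and 1.44 in polysomal RNA, and it too was above the array median on 0 arrays. The basic helix-loop-helix genes AT2G22750 and AT2G22760 lie beside NAI1 on chromosome 2. They differed by -0.92 and -0.87 and passed as lower, also at values below the array median on all arrays, whereas NAI1 itself went up by 4.86.

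**Figure D5:**
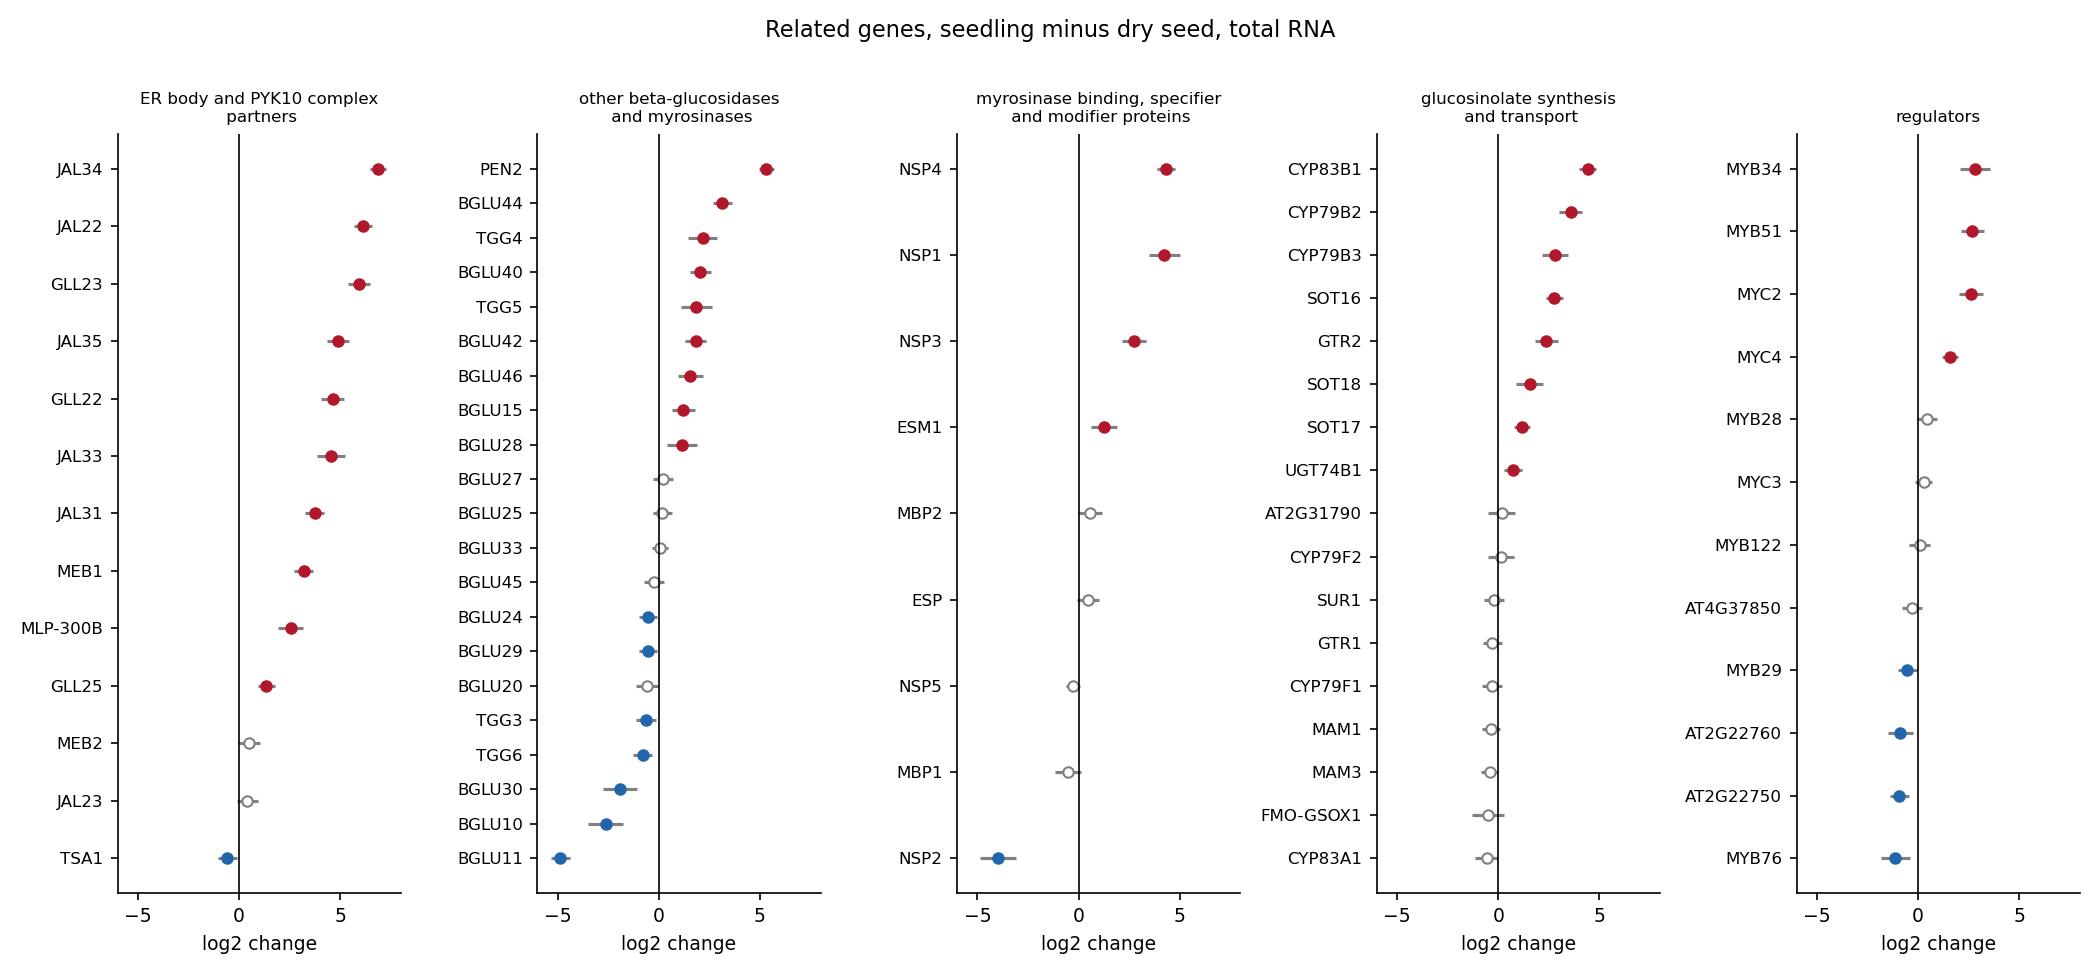
Difference in log2 RMA value between 72 h seedlings and dry seed in total RNA (horizontal axis) for the 72 measured genes of the 5 related lists. Bars are 95% confidence intervals of the fit with 3 arrays in each group, red points passed an adjusted p of 0.05 as higher, blue points as lower, and open points did not pass. Genes of the ER body and the PYK10 complex reach 6.85, and the other β-glucosidases run from -4.87 to 5.32.

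The same lists were examined for fraction differences. Of the 13 partner genes, 4 were lower in monosomal than in total RNA of seedlings and 0 were higher, and 5 were lower and 1 higher in polysomal than in total RNA. Over all rows the shares were 14.5% lower and 17.2% higher for monosomal RNA and 10.7% lower and 9.86% higher for polysomal RNA. In dry seed 2 partner genes were lower in polysomal than in total RNA and 0 were higher, where 1.5% of all rows were lower and 3.15% higher. Against monosomal RNA of dry seed, 3 were lower and 1 higher in polysomal RNA, where 7.49% of all rows were lower and 11.5% higher. GLL22 was lower in polysomal than in total RNA of seedlings by 1.49 (SE 0.27, limma adjusted p = 0.000623), and this shift was 1.61 lower than in dry seed (SE 0.38, adjusted p = 0.0123). JAL31 was the 1 that was higher, by 0.69 (SE 0.22, adjusted p = 0.0311, called in 21 of 25 settings), with a difference between stages of 1.74 (SE 0.31, adjusted p = 0.00176). JAL35 went up from monosomal to polysomal RNA by 1.74 more in seedlings than in dry seed (SE 0.37, adjusted p = 0.00574), and MEB2 by 1.38 from total to polysomal RNA (SE 0.37, adjusted p = 0.0266, called in 20 of 25 settings). The partner genes thus included genes with shifts in both directions relative to total RNA. On dry seed arrays JAL31 and JAL35 were above the array median on 0 of 9, MEB2 on 1 and GLL22 on 3. Their differences between stages therefore rest in part on weak signals.

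Of 72 related genes, 11 were higher and 12 lower in seedling monosomal than total RNA, where 17.2% and 14.5% of all rows were. Between stages 7 shifted up and 5 down in that comparison, beside 9.27% and 9.85%. Seedling polysomal minus monosomal RNA gave 9 higher and 4 lower, beside 10.9% and 8.17%. Its difference between stages gave 7 and 2, beside 5.69% and 4.8%. At most 4 genes of each list are named, by size of the called difference. Outside the partner list, BGLU44 shifted from total to monosomal RNA by -1.85 between stages (SE 0.33, limma adjusted p = 0.000918) and NSP4 by 1.38 (SE 0.29, adjusted p = 0.00364). BGLU15 was lower by 1.59 in polysomal than in monosomal RNA of seedlings (SE 0.27, adjusted p = 0.000571), and NSP5 was higher by 0.55 (SE 0.16, adjusted p = 0.0255). SOT17 rose by 1.13 from monosomal to polysomal RNA relative to dry seed (SE 0.27, adjusted p = 0.0108), and AT4G37850, a basic helix-loop-helix gene, by 1.30 (SE 0.33, adjusted p = 0.0153). AT4G37850 was above the array median on 0 of 18 arrays, and SOT17 and NSP4 on 0 of 9 dry seed arrays. BGLU15 was above it on 4 of 9 seedling arrays. The calls of AT4G37850, SOT17, NSP4 and BGLU15 thus rest at least in part on weak signals. The calls of BGLU44, NSP4, BGLU15, SOT17 and AT4G37850 held in every setting tried, and NSP5 was called in 19 of 25.

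A further 9 calls, each lost in at least 2 settings, were weaker. BGLU10 at 1.81 (SE 0.59, adjusted p = 0.0382), BGLU30 at -1.73 (SE 0.56, adjusted p = 0.0374), AT2G31790 at 1.34 (SE 0.44, adjusted p = 0.0407), AT2G22760 at 1.39 (SE 0.41, adjusted p = 0.0247) and AT2G22750 at 1.13 (SE 0.32, adjusted p = 0.02) differed between stages in monosomal against total RNA by limma. MBP1 at 0.999 (SE 0.31, adjusted p = 0.0196), FMO-GSOX1 at 1.05 (SE 0.38, adjusted p = 0.0443) and CYP83A1 at 0.81 (SE 0.27, adjusted p = 0.0284) were higher in monosomal than in total RNA of seedlings. On seedling arrays MBP1, FMO-GSOX1 and CYP83A1 were above the array median on 0 of 9, as were AT2G22760 and AT2G22750 in both stages, so these rest on weak signals. MYC2 was lower by 0.86 in polysomal than in monosomal RNA of dry seed (SE 0.28, limma adjusted p = 0.0372). There 5 of the 72 related genes were lower and 1 higher, where 7.49% of all rows were lower and 11.5% higher.

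By position on the chromosomes, in the gene order of RefSeq assembly TAIR10.1, the members had 35 measured neighbours within 3 genes on either side that were no members. Of these, 10 rose and 12 fell in total RNA, where 62.1% of all rows were called. PBP1 lies in a run of related genes on chromosome 3 in which NSP4, JAL31 (3.74) and MLP-300B (2.55) rose as well. BGLU19 lies 2 genes from AT3G21380, which went from 11.12 to 2.78 (difference -8.34, limma adjusted p = 1.17e-10), close to the course of BGLU19 itself. GSTU8, the nearest measured gene on 1 side of PYK10, rose by 4.15.

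The rows most like 4 of the members across the 18 arrays were found by Pearson's r. For PYK10 they were AT1G74470 and AT5G57760, with r of 0.997 and 0.996, and a pair of identical rows, AT3G20365 and ATCG00240, with 0.996 each, of which the locus measured is uncertain. For BGLU19 they were NADP-ME1, AT4G02690, AT3G15280 and CYP71B10, with r of 0.998 each. For NAI1 they were AT5G19290 (0.996), AT5G47190 (0.995), CCoAOMT1 (0.995) and AT5G19940 (0.994). TGG1 had lower values, with GLY1 at 0.962, BRG2 at 0.961, PAO4 at 0.957 and the ER body gene MEB1 at 0.953. These coefficients describe 18 arrays that fall into 2 stages, so they mostly record the difference between stages.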

How the data were processed

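The authors deposited log2 values after RMA, per the submitters' processing notes, with 27827 rows, 1 per locus. The RMA version, the array platform and the grouping of probes are not given in the sources used here. Array values have no read depth, and the number of arrays limits the precision. The labels give a randomized complete block layout, but tie no replicate number to a block.

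Sample groups came from the labels. Group means of all 18 arrays were fitted in limma 3.58.1 under R 4.3.3 (12 residual degrees of freedom) without a filter, and p was adjusted by Benjamini and Hochberg over all rows, with a threshold of 0.05. The fit was tested on simulated data. Members and lists were chosen with earlier results of these data known. Fraction contrasts use the same arrays as the stage contrasts.

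All members were named. From each related list the text names up to 4 called genes with the largest total RNA change and up to 4 called in fraction contrasts, and a few more chosen after their values were seen. Alternatives were centring on array medians, cyclic loess, leaving out the dimmest 25% of rows, trend and robust variance priors, array weights, fits of the compared groups alone, a replicate block and leaving out each array. Correlations of deviations between same-numbered arrays were -0.02 to 0.08 in dry seed and 0.01 to 0.08 in seedlings. In each stage 0 of 9 pairs exceeded 0.1. All 9 were positive in seedlings, and whether this marks a weak pairing by replicate number was not tested. RefSeq names (TAIR10.1) matched 27241 rows. Promoter and protein sequences were not used here.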

Additional observations from a re-analysis of the deposited data

Results flagged for a closer look

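Of the 10 members, 2 had fraction shifts that differed between the stages by a test of that difference, both in monosomal against total RNA. Over all rows 19.1% were called in that comparison and 9.85% were called as lower. The monosomal minus total difference of BGLU22 was 2.66 lower in seedlings than in dry seed (-2.66, SE 0.74, limma adjusted p = 0.0185), and that of NAI2 was 1.23 lower (-1.23, SE 0.37, limma adjusted p = 0.0282). For BGLU22 the seedling monosomal arrays read 4.66, 5.47 and 2.82, for NAI2 8.45, 8.69 and 8.52. BGLU22 was called in all 25 other settings, with values from -3.23 to -1.91, and NAI2 in 18 of 25. Dry seed values of both genes were below the array medians on all 9 arrays.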

How the results depend on the processing

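Of the 25 other settings per result, 7 changed the processing and 18 left out 1 array each. Median differences of the members between stages became 4.28 in total, 2.84 in monosomal and 3.54 in polysomal RNA with arrays centred on their medians, where the median of all rows moved to -0.67, -0.33 and -0.46; without 1 array they ran from 4.64 to 4.92, 2.91 to 3.46 and 3.83 to 4.11. BGLU18 reversed under centring, to -0.034, -0.019 and -0.13. Called members in seedling polysomal minus total RNA were 0 with centring, 0 with the replicate block (NAI2 adjusted p = 0.0534), 3 with array weights and 3 with only the groups compared. Of all 27827 rows, 5712 were called there in the main fit, and 4045 to 7027 in the other settings, most with array weights. In dry seed polysomal minus total RNA 1 was called with cyclic loess, 1 with array weights and 1 with only the groups compared. Polysomal minus monosomal RNA of dry seed gave 2 with loess and 1 with trend and robust priors, and monosomal minus total RNA of dry seed 0 with only the groups compared. Between stages, only the groups compared gave 1 in monosomal and 1 in polysomal against total RNA; PYK10 was gained in monosomal against total RNA with centring (adjusted p = 0.0375) and with trend and robust priors (0.0432). Leaving out 1 array gave 1 to 1 (monosomal minus total), 0 to 1 (polysomal minus total) and 0 to 1 (polysomal minus monosomal) called members in dry seed, 1 to 3, 0 to 3 and 0 to 0 in seedlings, and 1 to 3, 0 to 1 and 0 to 0 for the differences between stages. Related genes called ran from 43 to 49 in total, 40 to 43 in monosomal and 42 to 45 in polysomal RNA. The block changed no other call of a member. Over all rows, calls in dry seed polysomal minus total RNA fell from 1295 to 188 without polysomal replicate 1 and rose to 2840 with array weights; monosomal minus total RNA of dry seed went from 1727 to 623 and seedling polysomal minus monosomal RNA from 5321 to 2299 with only the groups compared; and polysomal minus total and polysomal minus monosomal RNA between stages went from 2504 to 1530 and 2919 to 1835 without dry polysomal replicates 1 and 2. Centring took the share of higher calls from 46.4% to 27.8% in total, 51.8% to 34.9% in monosomal and 49.9% to 31.5% in polysomal RNA between stages, and from 54.2% to 71.9% and 48.0% to 62.6% in monosomal and polysomal against total RNA of seedlings. The causes were not tested. With 3 arrays a group and no detection call, shifts of members near the array medians are the least certain.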
